A study of Mus musculus with 30 samples.

Results

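The genes described here are Eph receptors and ephrins, the receptor tyrosine kinases and membrane-bound ligands through which touching cells repel or hold each other, in mouse embryonic stem cells differentiating under retinoic acid. They were chosen by the strong rise of 1 receptor, Epha3, over the time course, and the question asked was how its relatives behaved. The 10 symbols were Epha2, Epha3, Epha4, Epha5, Epha7, Ephb2, Ephb3, Efna5, Efnb1 and Efnb2. A gene was measured where a probe set of the array carried that symbol and no other, which held for 9 of the 10 members, with 28 probe sets, out of 18193 genes measured in the same way. Ephb2 had no such probe set and is not analysed here.

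The study profiled RNA of KH2 cells, a mouse embryonic stem cell line, on 30 Affymetrix arrays, 3 for each of 10 groups of samples. The groups were 8 h, 12 h, 16 h, 24 h, 36 h, 48 h, 60 h and 72 h, with 12 h and 24 h represented by 2 groups each, lettered A to C and D to F in the sample titles. The 8 h samples are labelled as baseline and all later ones as retinoic acid; the protocol gives 0.3 µM retinoic acid in differentiation medium, and which agent the 8 h cells met is not stated. All cells were grown on feeder fibroblasts, all groups share 1 line, and the labels do not say whether the 3 samples of a group came from separate cultures, so the p-values given here speak for the variation among the arrays at hand, which may be technical. Cells were replated on gelatin before lysis, and the descriptions differ on whether the attached or the drawn-off cells were kept.

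Eph receptors bind ephrins on neighbouring cells and signal in both directions. A-type receptors mostly bind the GPI-anchored ephrin-A ligands and B-type receptors mostly bind the transmembrane ephrin-B ligands, with Epha4 known to bind both. In the embryo these pairs keep cells of adjacent hindbrain segments apart, guide axons and set tissue borders, and retinoic acid is a signal that patterns the same hindbrain. In mouse embryonic stem cells Epha2 is known as an abundant receptor of the undifferentiated state.

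The promoters of 3 members are shown because of the courses of these genes. Epha3 and Efna5 had the most similar courses among the members, and both rose by 72 h. Epha2 fell between 12 h D-F and 72 h. Each window runs from 250 bases before to 50 bases after the annotated start, 5′ to 3′ on the gene's strand, from RefSeq on GRCm38.p6. Epha3 lies on chromosome 16 at 63543532 to 63864175 with its window at chr16:63864126-63864425 on the minus strand, Efna5 on chromosome 17 at 62602957 to 62881317 with its window at chr17:62881268-62881567 on the minus strand, and Epha2 on chromosome 4 at 141301221 to 141329384 with its window at chr4:141300971-141301270 on the plus strand. Capitals mark the only match to a searched motif.
Epha3: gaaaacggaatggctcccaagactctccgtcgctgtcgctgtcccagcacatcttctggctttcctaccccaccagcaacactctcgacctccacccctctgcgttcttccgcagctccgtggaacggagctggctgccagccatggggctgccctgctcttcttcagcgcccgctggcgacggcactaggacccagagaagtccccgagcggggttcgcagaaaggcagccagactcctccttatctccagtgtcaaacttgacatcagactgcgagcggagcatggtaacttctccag
Efna5: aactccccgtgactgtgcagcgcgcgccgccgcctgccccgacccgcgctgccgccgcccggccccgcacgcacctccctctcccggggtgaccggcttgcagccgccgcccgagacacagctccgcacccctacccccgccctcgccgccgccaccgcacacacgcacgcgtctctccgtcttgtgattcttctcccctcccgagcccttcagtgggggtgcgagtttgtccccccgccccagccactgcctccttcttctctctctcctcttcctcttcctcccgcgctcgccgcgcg
Epha2: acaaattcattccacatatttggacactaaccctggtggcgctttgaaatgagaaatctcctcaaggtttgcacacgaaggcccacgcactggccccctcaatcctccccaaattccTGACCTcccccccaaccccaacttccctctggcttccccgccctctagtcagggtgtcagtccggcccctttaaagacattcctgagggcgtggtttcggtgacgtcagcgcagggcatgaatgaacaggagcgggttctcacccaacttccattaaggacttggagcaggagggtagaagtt

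The windows of all 10 members, 11 in number because Epha7 has a pair, were searched on both strands for AGGTCA, a half-site bound by retinoic acid receptors, for direct repeats of it named DR5 and DR2 after the bases between the repeats, and for TGATNNAT, a form of the site bound by Hox and Pbx proteins. The single match was AGGTCA in Epha2, read as TGACCT on the strand printed, at position -133 from the start. Among all 32851 promoter windows of the same length, 16.3% held AGGTCA, 8.85% held TGATNNAT and 3 windows held each direct repeat, so 1 match in 11 windows is a description of these letters and says nothing of binding. In base composition the members' windows differed widely, from 10 CG pairs and 54.7% G and C in Epha2 to 38 pairs and 73.3% in Efna5. The medians over all windows were 7 pairs and 52.7%. The share of all windows with such values was not computed.

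Values are log2 signals as deposited, with medians of 6.34 to 6.39 and lower quartiles of 4.73 to 4.85 per array. The files used here hold no detection calls, so a mean under 4.73 is treated as a level that need not be above background, and a difference from it is written as at least that size. Signals of different probe sets are not compared. The arrays fell into 2 sets by BioDn and BioC, spike-in controls added to each array. In the 8 h, 12 h A-C, 16 h and 24 h A-C arrays BioDn exceeded BioC by 0.99 to 1.07 (12 arrays). In the others it did so by 1.34 to 1.63 (18 arrays). Early changes were therefore read within the first set, 24 h A-C against 8 h, and later ones within the second, 36 h and 72 h against 12 h D-F and 72 h against 36 h. Tests used limma over all 30 arrays and 18193 genes with Benjamini-Hochberg adjustment, and a gene was called at an adjusted p under 0.05. Since the rule rested on the values of Epha3, that gene is described without a test.

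**Figure D1:**
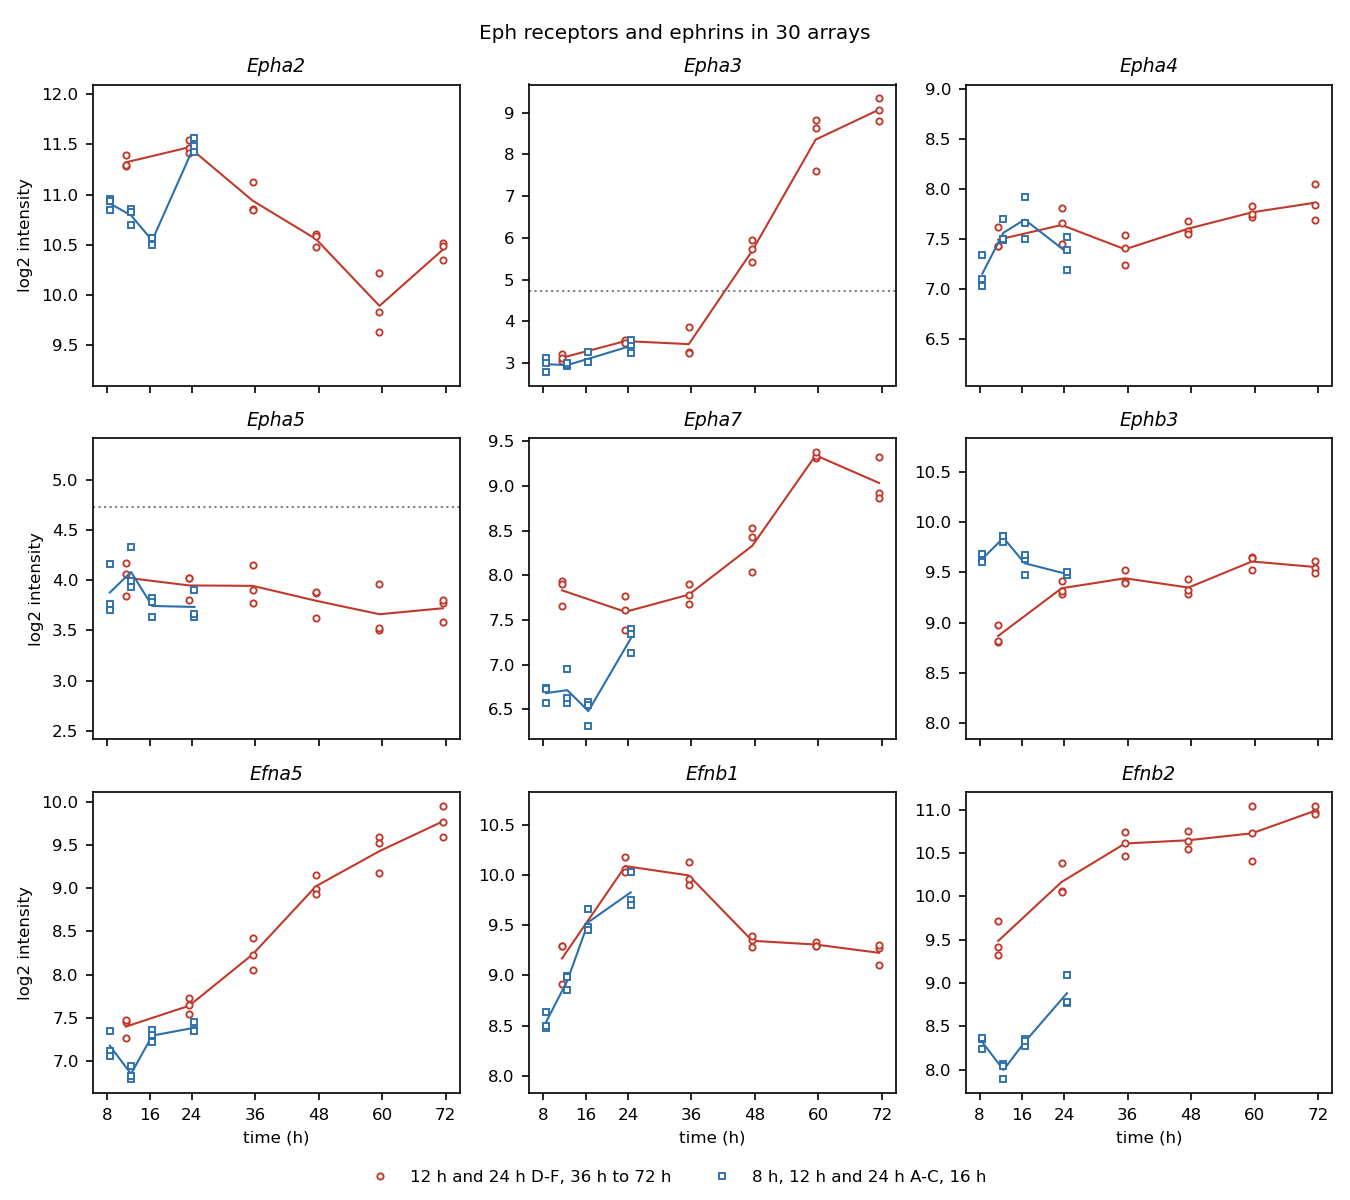
Log2 signal of the 9 measured members on each of the 30 arrays against time in hours, 1 panel a gene, with red circles for the second array set, blue squares for the first, lines through the group means and a dotted line at 4.73. Epha3 lies under the dotted line up to 36 h and at 8.81 to 9.35 at 72 h, Efna5, Efnb2 and Epha7 end high, Efnb1 peaks at 24 h to 36 h, and Epha5 stays under the line.

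Epha3, a receptor for ephrin-A ligands known from axon guidance and mesenchymal cells, stayed low through the first 36 h and rose after it. Its signals were 3.13, 2.79 and 3.00 at 8 h, 3.22, 3.04 and 3.12 at 12 h D-F, 3.26, 3.24 and 3.86 at 36 h, 5.42, 5.94 and 5.72 at 48 h, 7.60, 8.83 and 8.64 at 60 h, and 9.35, 9.07 and 8.81 at 72 h. The arrays of 36 h, 48 h and 60 h did not overlap from one time to the next, whereas those of 60 h and 72 h did. The step between 48 h and 36 h was at least 2.24, and that between 60 h and 48 h was 2.66. At 72 h Epha3 was at least 5.62 above 36 h and at least 5.95 above 12 h D-F on the log2 scale. The span of its group means, at least 6.12 from 12 h A-C to 72 h and so across both array sets, was larger than that of 99.9% of the genes.

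Not all of the 4 Epha3 probe sets showed this rise. All 4 had 12 h D-F means under 4.73, so their differences between 72 h and 12 h D-F are lower bounds: at least 5.95 for 1455426_at, at least 4.80 for 1425575_at and at least 1.74 for 1425574_at. The other one, 1426057_a_at, had means under 4.73 in both groups, 3.11 at 72 h and 2.81 at 12 h D-F, and no size is given for it. Averaging the 4 probe sets gave at least 3.20 for 72 h against 12 h D-F.

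**Figure D2:**
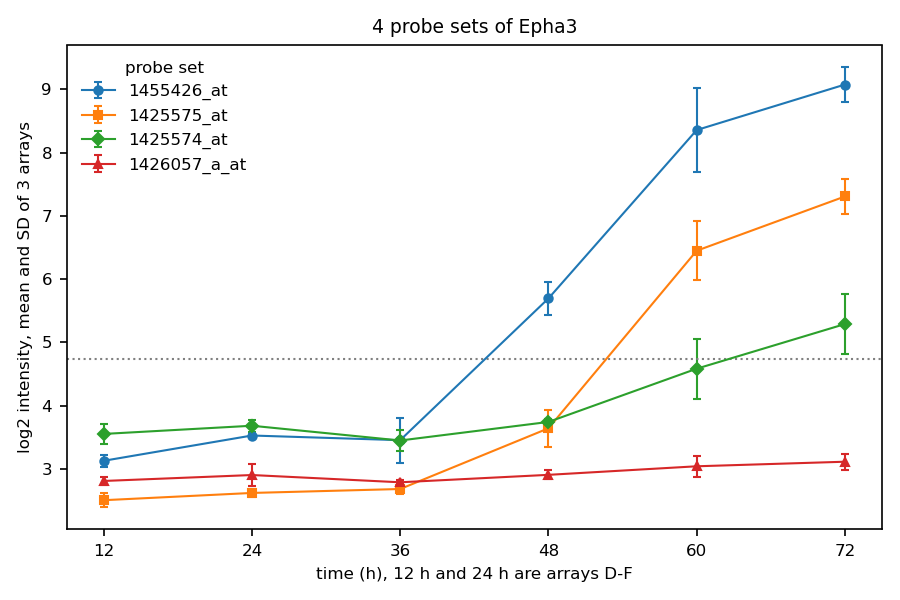
Mean log2 signal and SD of 3 arrays for the 4 Epha3 probe sets against time in hours, over the second array set, with a dotted line at 4.73. All 4 lie under the dotted line at 12 h, 3 are above it at 72 h, and 1426057_a_at stays under the dotted line.

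Epha7, an ephrin-A receptor with a known role in the closing neural tube and in cortical axon maps, rose late. It read 9.32, 8.91 and 8.86 at 72 h, against 7.94, 7.65 and 7.91 at 12 h D-F. All 72 h arrays were above all 12 h D-F arrays. The difference was 1.20 ± 0.13 (SE, limma adjusted p = 2.72e-08). Its group mean was 9.34 at 60 h, and the arrays of 60 h and 72 h overlapped. Between 36 h and 12 h D-F no difference was called, at -0.05 (limma adjusted p = 0.80), and between 72 h and 36 h the difference was 1.25 ± 0.13 (limma adjusted p = 7.62e-08). Epha7 was also higher at 24 h A-C, with 7.40, 7.34 and 7.13, than at 8 h, with 6.74, 6.73 and 6.57. The difference was 0.61 ± 0.13 (SE, limma adjusted p = 0.000707). Its means in between were 6.72 at 12 h A-C and 6.48 at 16 h. In the second set no early rise was seen, with means of 7.83 at 12 h D-F and 7.59 at 24 h D-F and overlapping arrays. All 3 other Epha7 probe sets were higher at 72 h than at 12 h D-F, by 0.32, 0.81 and at least 1.56 (1452380_at, with a 12 h D-F mean of 3.37), in a fit over all 34945 single-symbol probe sets in which 53.5% were called for this comparison. With its 4 probe sets averaged, the early difference was 0.32 (limma adjusted p = 0.00409).

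Epha2, which binds ephrin-A1 and is known from epithelia and pluripotent cells, dipped, was higher at 24 h A-C than at 8 h, and fell later. It read 11.48, 11.43 and 11.56 at 24 h A-C, against 10.85, 10.95 and 10.93 at 8 h, and the groups did not overlap. The early difference was 0.58 ± 0.10 (SE, limma adjusted p = 3.64e-05). It was not a steady rise, as the group means in between were 10.79 at 12 h A-C and 10.54 at 16 h. The 16 h arrays, at 10.50 to 10.57, lay below all 8 h arrays. It read 10.35, 10.51 and 10.49 at 72 h, against 11.28, 11.39 and 11.29 at 12 h D-F, again without overlap, and had fallen by 0.87 (SE 0.10, limma adjusted p = 2.94e-08). The lowest group mean was at 60 h, with arrays of 9.63, 9.83 and 10.22, all below the 72 h arrays. Its fall at 36 h against 12 h D-F, -0.38 (limma adjusted p = 0.00229), was -0.12 (limma adjusted p = 0.471) when the letters were pooled, since the 12 h A-C arrays were lower than the 12 h D-F arrays. Within the second set the 36 h arrays, with a mean of 10.94, also lay below all 24 h D-F arrays, with a mean of 11.47.

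Epha4, which takes part in keeping hindbrain segments apart, changed little on the probe set used. It read 8.05, 7.70 and 7.84 at 72 h, against 7.43, 7.62 and 7.44 at 12 h D-F, higher by 0.37 ± 0.12 (SE, limma adjusted p = 0.0078). Without the 72 h A array the difference was 0.27 (limma adjusted p = 0.0646), and after quantile normalisation 0.25 (limma adjusted p = 0.0751). The other 4 Epha4 probe sets were also called higher in the fit over all probe sets, where 53.5% were called in either direction. For 3 of them the differences were 0.60, 1.07 and 1.16. The means of 1456863_at were both under 4.73 (3.44 at 72 h and 2.80 at 12 h D-F). The mean of all 5, which includes that dim probe set, differed by 0.77 (limma adjusted p = 1.99e-05). One of them, 1429021_at, was also higher at 24 h A-C than at 8 h, by 0.65 (limma adjusted p = 0.000353, where 31.5% of probe sets were called), whereas the probe set used differed by 0.21 (limma adjusted p = 0.15). The same probe set was lower at 36 h than at 12 h D-F, at -0.42 (limma adjusted p = 0.0116, where 37.3% of probe sets were called), and the probe set used was not called there. At 12 h, 1429021_at was higher in D-F than in A-C by 0.69 (limma adjusted p = 0.000153). Its 36 h mean, 7.36, was above that of 12 h A-C, 7.09. Within the second set it was also below that of 24 h D-F, 7.77, without overlap of the arrays.

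Epha5, a receptor of neurons, had group means of 3.66 to 4.08, all under 4.73, and no difference was called in any of the 6 comparisons. Between 72 h and 12 h D-F its probe sets did not point one way, and no size is given because the means were under 4.73. Probe set 1437920_at was called higher (3.68 against 3.34, limma adjusted p = 0.00838), where 53.5% of probe sets were called in either direction. The probe set used was lower without being called (limma adjusted p = 0.0597).

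Ephb3, the only B-type receptor measured among the members and known from intestinal crypts and axon tracts, had 1 probe set and read between 9.28 and 9.87 in every array outside 12 h D-F. The 12 h D-F arrays, at 8.81, 8.98 and 8.82, lay below all others. At 72 h its arrays read 9.54, 9.50 and 9.62, so the difference from 12 h D-F was 0.69 ± 0.06 (SE, limma adjusted p = 6.01e-10). That call, and the one for 36 h against 12 h D-F at 0.57 (limma adjusted p = 3.35e-08), rested on the low 12 h D-F group: with the letters pooled they were 0.20 (limma adjusted p = 0.344) and 0.09 (limma adjusted p = 0.728). Within the first set Ephb3 was 0.15 lower at 24 h A-C than at 8 h, just short of the threshold (difference -0.15, limma adjusted p = 0.0523), and between 72 h and 36 h it differed by 0.11 (limma adjusted p = 0.165).

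Among the ligands, Efna5, which encodes ephrin-A5, a binding partner of several A-type receptors including Epha3, rose in step after step from 24 h D-F to 72 h. It read 9.96, 9.77 and 9.60 at 72 h, against 7.45, 7.47 and 7.26 at 12 h D-F, with no overlap. The difference was 2.38 ± 0.11 (SE, limma adjusted p = 2.46e-15). Group means were 7.40, 7.64, 8.23, 9.02, 9.43 and 9.78 at 12 h D-F, 24 h D-F, 36 h, 48 h, 60 h and 72 h, and no neighbouring pair of these groups overlapped. Unlike Epha3, Efna5 was already higher at 36 h than at 12 h D-F, by 0.84 ± 0.11 (limma adjusted p = 5.75e-07), although the difference between the genes was not tested. It was not called at 24 h A-C against 8 h, at 0.21 (limma adjusted p = 0.128). The second Efna5 probe set, 1421796_a_at, near 4.94 at 72 h, differed by 0.07 (limma adjusted p = 0.638), and the mean of both gave 1.23 for 72 h against 12 h D-F, 0.78 for 72 h against 36 h and 0.44 for 36 h against 12 h D-F, each still called.

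Efnb2, which encodes ephrin-B2, the transmembrane ligand known from arterial endothelium and hindbrain segments, rose mainly before 36 h. It read 8.77, 9.09 and 8.79 at 24 h A-C, against 8.35, 8.36 and 8.24 at 8 h, higher by 0.56 ± 0.12 (SE, limma adjusted p = 0.000714). It read 10.47, 10.62 and 10.74 at 36 h, against 9.71, 9.32 and 9.42 at 12 h D-F, higher by 1.12 ± 0.12 (SE, limma adjusted p = 5.61e-08). All arrays of the later time were above those of the earlier one in both comparisons. After 36 h neighbouring times overlapped, and 72 h, at 10.97, 10.95 and 11.04, was above 36 h by 0.38 ± 0.12 (SE, limma adjusted p = 0.0189). That last call was lost without 36 h A (0.31, limma adjusted p = 0.096) or without 72 h C (0.35, limma adjusted p = 0.0607).

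The Efnb2 probe sets differed. From 12 h D-F to 72 h, 1419638_at moved with the set used, 1.50 each, 1449548_at was higher by 0.75 and 1449549_at was not called at -0.22 (limma adjusted p = 0.118). At 24 h A-C against 8 h, 1449549_at was lower, at -0.36 (limma adjusted p = 0.0215, where 31.5% of probe sets were called). Its 24 h A-C mean, 4.61, was under 4.73, so that size is a lower bound. The mean of all 4 gave 0.15 (limma adjusted p = 0.143). That mean differed by 0.88 for 72 h against 12 h D-F and by 0.61 for 36 h against 12 h D-F, both called, and with the letters pooled the probe set used differed by 1.87 between 36 h and 12 h and by 1.21 between 24 h and 8 h.

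Efnb1, which encodes the X-linked ligand ephrin-B1 known from craniofacial borders, had the largest early difference of the members tested. It read 9.75, 10.03 and 9.70 at 24 h A-C, against 8.48, 8.64 and 8.49 at 8 h, higher by 1.29 ± 0.09 (SE, limma adjusted p = 1.56e-10). Its means at 8 h, 12 h A-C, 16 h and 24 h A-C were 8.54, 8.95, 9.53 and 9.83, with no overlap between neighbours. It then fell: it read 9.27, 9.30 and 9.10 at 72 h, against 9.96, 9.90 and 10.13 at 36 h, a fall of 0.77 (difference -0.77, SE 0.09, limma adjusted p = 5.71e-07). Its mean was 9.35 at 48 h, so most of the step lay between 36 h and 48 h, and 48 h, 60 h and 72 h overlapped each other in turn. At 72 h it was within 0.06 of 12 h D-F (limma adjusted p = 0.621). All 3 Efnb1 probe sets rose early, by 1.29 to 1.64, and fell between 36 h and 72 h, where 28.8% of all probe sets were called.

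Counted together, the 8 members tested were read against all 18193 genes. At 24 h A-C against 8 h, 4 were higher (Epha2, Epha7, Efnb1 and Efnb2) and 0 lower, where 23.5% of all genes were higher and 15.8% lower. At an unadjusted limma p under 0.05, Ephb3 would be added there as lower. At 36 h against 12 h D-F, 4 were higher (Ephb3, Efna5, Efnb1 and Efnb2) and 1, Epha2, lower, where 23.1% of all genes were higher and 21.4% lower. At 72 h against 36 h, 4 were higher (Epha4, Epha7, Efna5 and Efnb2) and 2 lower (Epha2 and Efnb1), where 15.5% of all genes were higher and 20.2% lower. At 72 h against 12 h D-F, 5 were higher (Epha4, Epha7, Ephb3, Efna5 and Efnb2) and Epha2 lower, where 26.2% of all genes were higher and 34.5% lower. At an unadjusted limma p under 0.05, Epha5 would be added there as lower, with both means under 4.73. The members' median difference was 0.39, 0.26, 0.25 and 0.53 in these 4 comparisons, against -0.02, -0.04, -0.04 and -0.09 over all genes; the members were listed with earlier results of these data known. The 36 h and 72 h comparisons share the 12 h D-F arrays or the 36 h arrays.

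**Figure D3:**
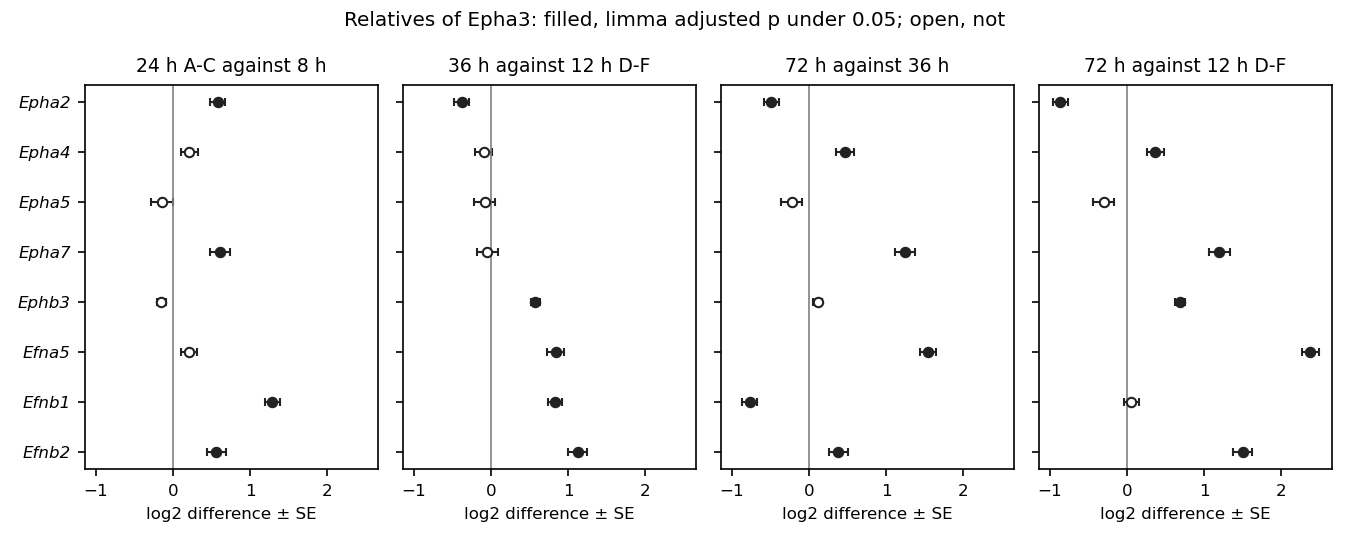
Log2 difference with its SE for the 8 members tested in the 4 comparisons of times, later minus earlier, with filled points for called differences. Efna5 has the largest tested difference at 72 h against 12 h D-F (2.38), and Efnb1 is at 1.29 for 24 h A-C against 8 h and -0.77 for 72 h against 36 h.

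Across the 10 group means, which share arrays of 2 sets and the same time order, Epha3 ran most like Efna5 (Pearson r = 0.94) and Epha7 (r = 0.89) among the members. Epha7 and Efna5 had r = 0.93, Epha7 and Efnb2 r = 0.90, and Efna5 and Efnb2 r = 0.88. Epha2 ran against Epha3, with r = -0.71, and Efnb1, with its peak at mid-course, had r = -0.08 with Epha3. The Epha3 means from 8 h to 36 h were all under 4.73, so every r with Epha3 rests mainly on 48 h, 60 h and 72 h. Of 978 genes whose group means spanned at least 2 on the log2 scale, the most like Epha3 were Fat4, a large cadherin (r = 0.990), Bmp5, a secreted growth factor (r = 0.987), Pou3f3, a transcription factor of the nervous system (r = 0.986), Prdm8 (r = 0.985) and Tbx2, a T-box factor (r = 0.985). Fat4 had group means of 4.62, 5.69, 7.05 and 8.14 at 36 h, 48 h, 60 h and 72 h. The spans of group means were 2.99 for Efnb2, 2.93 for Efna5 and 2.86 for Epha7, each above that of 97.9% of genes or more, and 0.71 for Epha4 and 0.42 for Epha5. Each of these spans lies between a group of the first array set and one of the second, so it includes any difference between the sets. Within the second set, 72 h differed from 12 h D-F by 1.50 for Efnb2, 2.38 for Efna5 and 1.20 for Epha7.

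Markers of other cell types moved over the same hours. For 15 fibroblast genes, chosen because the cells were grown on feeder fibroblasts, the mean signal was 10.07 at 72 h (9.52 to 10.40 over the arrays), against 7.77 at 12 h D-F (7.34 to 8.08), and 14 of the 15 rose. That mean was 8.58 at 36 h (8.41 to 8.88), 10.12 at 48 h (9.55 to 10.61) and 9.69 at 60 h (9.23 to 9.98). Only Fap, at 8 h, had a mean under 4.73 among the fibroblast genes. Over 8 endoderm genes the mean was 9.64 at 72 h, against 8.00 at 12 h D-F, with 7 of 8 higher, and over 8 neural genes 8.52, against 7.12, with 5 of 8 higher. Of 5 mesoderm genes measured, 3 were higher and 1 lower, with means of 7.84 at 72 h and 6.45 at 12 h D-F. The mean over 10 embryonic stem cell genes was 10.87 at 72 h, against 12.27 at 12 h D-F, with 9 of 10 lower. For 72 h against 12 h D-F, 26.2% of all genes were called higher and 34.5% lower. None of the endoderm genes was under 4.73 in any group, Zic1 alone of the neural genes was so at 8 h, 12 h A-C and 16 h, and Foxc1 alone of the mesoderm genes at 8 h. The part of these markers in the members' changes was not tested, and in bulk samples fewer cells of a type and less RNA per cell cannot be told apart.

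**Figure D4:**
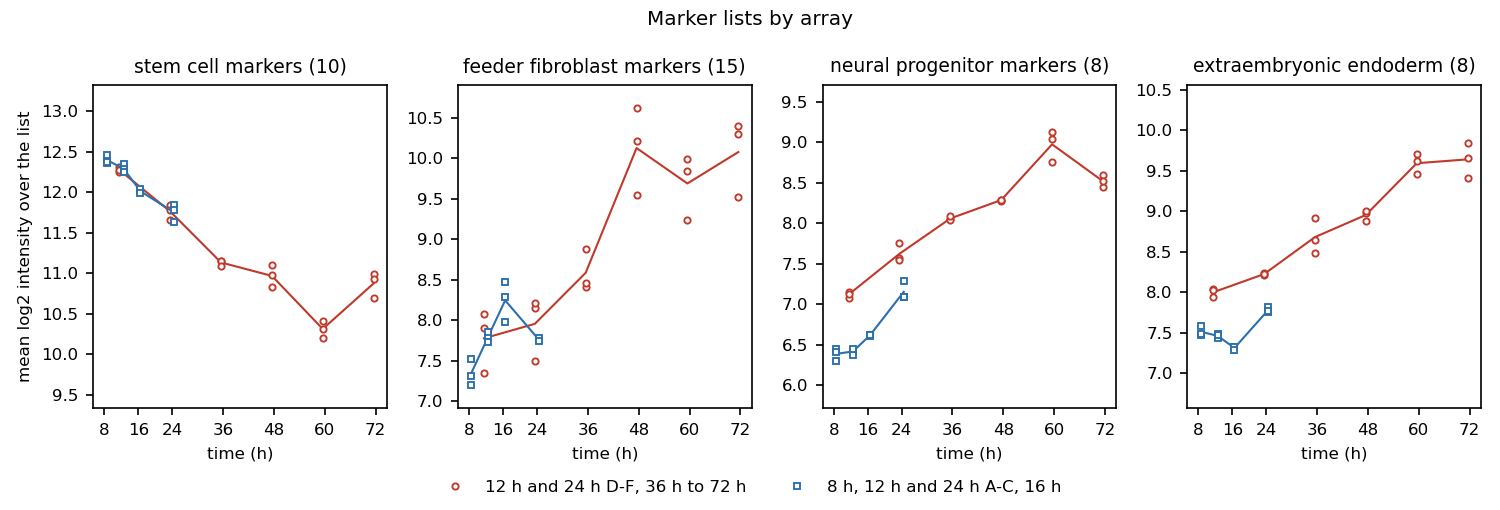
Mean log2 signal of the stem cell, fibroblast, neural and endoderm lists on each array against time in hours, 1 panel a list, with red circles for the second array set, blue squares for the first and lines through group means. The fibroblast list reaches 10.12 at 48 h and 10.07 at 72 h, and the embryonic stem cell list is lowest at 60 h.

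The same members differed between the 2 array sets at the same labelled time. At 12 h, Efnb2 read 9.71, 9.32 and 9.42 in D-F, against 8.06, 7.89 and 8.04 in A-C, higher by 1.49 ± 0.12 (SE, limma adjusted p = 1.83e-09), and at 24 h it was higher in D-F by 1.28 ± 0.12 (limma adjusted p = 2.65e-08). The 12 h gap was close in size to its later rise within the second set, 1.50 ± 0.12, and was 0.75 with all probe sets averaged. Epha7 was higher in D-F at 12 h by 1.12 (limma adjusted p = 4.26e-07), or 0.56 with its probe sets averaged, Efna5 by 0.55 (limma adjusted p = 0.000215) and Epha2 by 0.53 (limma adjusted p = 0.000109), and Ephb3 was lower, at -0.98 (limma adjusted p = 3.24e-11). At 24 h these 4 were not called, and only Efnb2 and Efnb1 (0.26, limma adjusted p = 0.0338) were. In counts, 4 of the 8 members tested were higher and 1 lower at 12 h, where 17.2% and 21.7% of all genes were, and 2 were higher and 0 lower at 24 h, where 13.3% and 20.4% were. Efnb1 had an unadjusted limma p of 0.026 at 12 h, and Epha4, Epha7, Ephb3 and Efna5 had unadjusted limma p-values of 0.026 to 0.035 at 24 h. Hoxb1, a direct target of retinoic acid, also stood higher in D-F, by 1.13 at 12 h (limma adjusted p = 1.25e-07) and 0.43 at 24 h (limma adjusted p = 0.00841). The array set and the letters cannot be told apart. A difference between 72 h and 8 h spans both sets: it was at least 6.10 for Epha3, 2.67 for Efnb2, 2.60 for Efna5, 2.35 for Epha7 and 0.69 for Efnb1, and no test is given for it.

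Of the 12 other Eph receptors and ephrins on the array, which were listed as the rest of the family, 7 rose, 3 fell and 2 were not called at 72 h against 12 h D-F, with a median of 0.42, where 26.2% of all genes were higher and 34.5% lower. Epha1, a receptor of epithelia, read 6.69, 6.66 and 6.89 at 72 h, against 8.21, 8.08 and 7.89 at 12 h D-F, a difference of -1.31 ± 0.10 (SE, limma adjusted p = 2.47e-11). Like Epha2 it fell between these times, the arrays of the pair of times did not overlap, and the mean of its probe sets gave -0.74. Efna4, a GPI-anchored ligand, was higher at 9.35, 9.34 and 9.25 at 72 h, against 8.16, 8.24 and 8.22 at 12 h D-F, by 1.11 ± 0.06 (SE, limma adjusted p = 6.34e-14). Efna3, another ligand of the A type, was higher by 1.04 ± 0.07 (limma adjusted p = 4.38e-12), Efna2 by 0.62, Ephb4, the receptor known to pair with ephrin-B2 in vessels, by 0.60, Ephb6 by 0.51, Efna1 by 0.42 and Efnb3 by 0.41. Epha8 was lower, at -0.64 (limma adjusted p = 4.2e-05), and Epha10, at -0.27 (limma adjusted p = 0.022). Epha6 stayed under 4.73 and Ephb1 differed by 0.01. The rises of Efna1 and Efnb3 started from 12 h D-F means of 6.80 and 7.38, against 8.27 and 8.02 at 12 h A-C. At 24 h D-F their means were 7.29 and 7.51, and at 72 h 7.23 and 7.79, so both rises depend on the low 12 h D-F group.

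By 36 h against 12 h D-F, 7 of these 12 were higher and 1 lower, led by Epha1 at -1.02, Efna4 at 0.82, Efna2 at 0.67 and Efna3 at 0.65, where 23.1% of all genes were higher and 21.4% lower. At 24 h A-C against 8 h, 5 were higher and 2 lower, with Ephb6 at 0.60, Efnb3 at -0.47 and Efna2 at 0.44, where 23.5% of all genes were higher and 15.8% lower. At 72 h against 36 h, 3 were higher and 2 lower, among them Epha8 at -0.44, Efna3 at 0.39, Epha1 at -0.30 and Efna4 at 0.28, where 15.5% of all genes were higher and 20.2% lower. The Epha1 call at 72 h against 36 h was lost when any of the arrays 36 h A, 36 h B, 72 h A or 72 h B was left out (-0.27 to -0.25), and that of Epha8 without 36 h C (-0.28, limma adjusted p = 0.06). Efna1 differed most between the sets, at -1.47 in D-F against A-C at 12 h (limma adjusted p = 1.12e-10) and -0.54 at 24 h (limma adjusted p = 0.000205). At 12 h, 1 of the 12 was higher and 4 lower in D-F (17.2% and 21.7% of all genes), and at 24 h 3 were higher and 1 lower (13.3% and 20.4% of all genes).

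**Figure D5:**
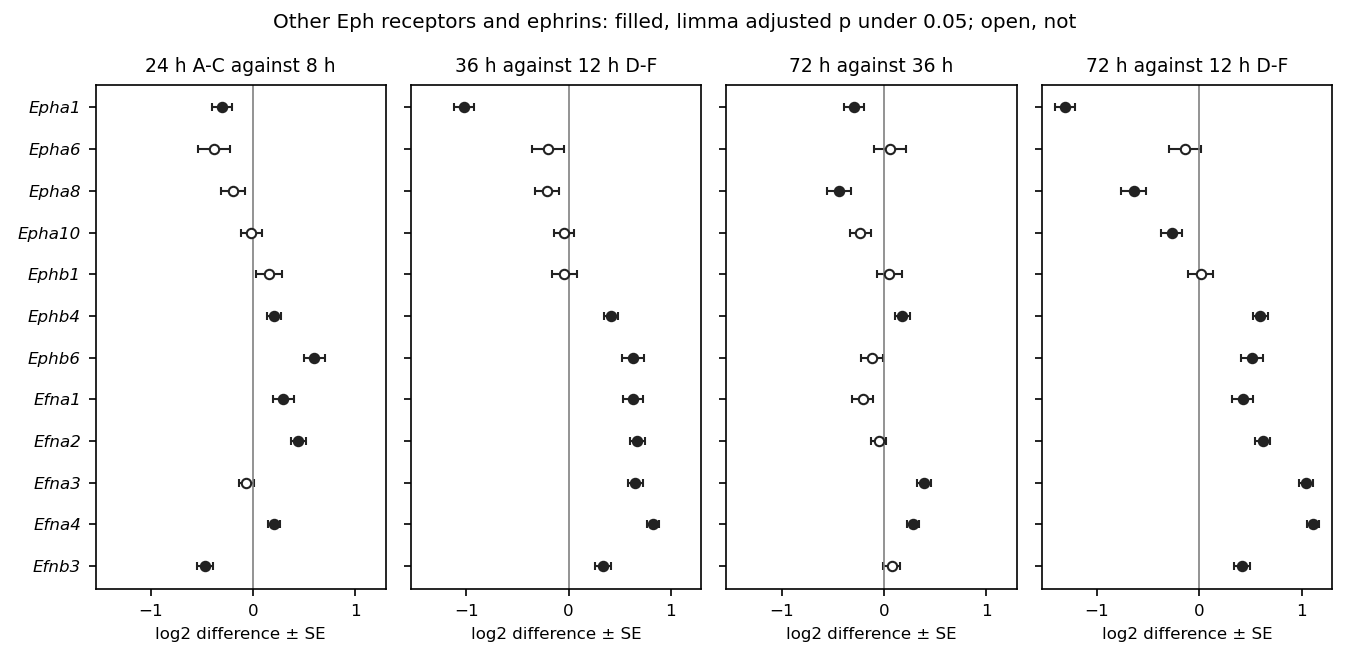
Log2 difference with its SE for the 12 other Eph receptors and ephrins in the 4 comparisons of times, later minus earlier, with filled points for called differences. Efna4 and Efna3 are above 1 and Epha1 is at -1.31 for 72 h against 12 h D-F, and Epha1 is already at -1.02 for 36 h against 12 h D-F.

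A list of 5 transcription factors covered those known in mouse for control of Eph genes in the hindbrain. Of these, Egr2, which acts on Epha4 in particular hindbrain segments, and Hoxb1 had a single-symbol probe set. Hoxb1 was higher at 24 h A-C than at 8 h by 2.57 ± 0.12 (SE, limma adjusted p = 1.02e-13) and lower at 72 h than at 36 h, at -1.85 ± 0.12 (SE, limma adjusted p = 3.37e-11). It was also lower at 72 h than at 12 h D-F, at -0.92, a call lost with the letters pooled (-0.35, limma adjusted p = 0.195). Egr2 read 8.82 to 9.28 over the arrays of 36 h, against 6.87 to 7.16 at 12 h D-F, higher by 2.02 ± 0.17 (SE, limma adjusted p = 1.01e-09). Its 36 h arrays were above those of every other time. At 72 h it was lower than at 36 h, at -1.25 (limma adjusted p = 3.74e-06). Over the same step from 12 h D-F to 36 h, Epha4 had no called difference on the probe set used (-0.10, limma adjusted p = 0.531). Its probe set 1429021_at was lower, at -0.42 (limma adjusted p = 0.0116). At 12 h that probe set stood 0.69 higher in D-F than in A-C, and its 24 h D-F mean, 7.77, was also above its 36 h mean, 7.36. Whether Egr2 acted on Epha4 in these cells was not tested.

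Of 27 measured genes for known signalling partners of Eph receptors and ephrins, 19 rose and 5 fell at 72 h against 12 h D-F, with a median difference of 0.29, where 26.2% of all genes were higher and 34.5% lower. Adam10, the protease that cleaves ephrin-A ligands, was higher by 1.70 ± 0.08 (SE, limma adjusted p = 2.19e-15), Grip1, a scaffold that binds ephrin-B tails, by 1.60 ± 0.12 (limma adjusted p = 3.35e-11), Kalrn, an exchange factor, by 1.49 ± 0.12 (limma adjusted p = 5.95e-11), and Nck2, an adaptor of ephrin-B, by 1.25 ± 0.06 (limma adjusted p = 1.99e-14). With all probe sets of a gene averaged, Adam10 was higher by 0.82, Kalrn by 0.97 and Nck2 by 0.48, each still called. By 36 h against 12 h D-F, 16 were higher and 3 lower, with Grip1 at 1.36, Adam10 at 1.10, Kalrn at 1.04 and Grb10 at 1.03, where 23.1% of all genes were higher and 21.4% lower; averaged probe sets gave 0.46 for Adam10 and 0.31 for Kalrn, both called. At 24 h A-C against 8 h, 13 were higher and 2 lower, led by Grb10, an adaptor protein, at 1.26, Vav3, an exchange factor, at 1.06, Adam10 at 0.83 and Fyn, a Src-family kinase, at 0.77, where 23.5% of all genes were higher and 15.8% lower. Averaged probe sets gave 0.35 for Adam10, and pooled letters 0.45 for Fyn, both called. Between 72 h and 36 h the list was divided, with 8 higher and 7 lower, where 15.5% of all genes were higher and 20.2% lower: Ngef, the exchange factor ephexin, was lower, at -0.62, and Adam10 was higher at 0.59, Sdcbp, a scaffold protein, at 0.57 and Nck2 at 0.46. Averaged probe sets gave 0.35 for both Adam10 and Sdcbp and 0.20 for Nck2, all called. Between the array sets, 4 of the 27 were higher and 9 lower in D-F at 12 h (17.2% and 21.7% of all genes), and 6 higher and 7 lower at 24 h (13.3% and 20.4% of all genes).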

How the data were processed

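Total RNA of 30 samples was biotin labelled and hybridised to Affymetrix mouse arrays, per the labels' protocols. The authors deposited 1 table of log2 signals of 45101 probe sets; limma 3.8.3 is named per the submitters' processing notes, and the normalisation method is not given in the sources used here. The array number limits the precision, and signals have no counting depth. Of the probe sets, 34945 carry 1 symbol in the platform annotation, 932 several and 9160 none. Each of 18193 genes was represented by its probe set with the highest mean. Groups were fitted with limma 3.58.1 (R 4.3.3) without further normalisation, with Benjamini-Hochberg adjustment over all genes and a threshold of 0.05. The fit was tested on simulated data. The members, gene lists and tests were chosen with earlier results of these data known. Named genes are all members, and per comparison up to 4 genes of each other list with the largest absolute difference, plus the 5 genes most like Epha3 over the group means. Additional genes of the family list are named to complete its calls, after their values were seen. Of 30 pairs of arrays within groups, 0 were identical. Same-lettered samples did not deviate together throughout (correlations of -0.04, 0.00 and -0.04 for 24 h A-C and 8 h, and 0.18, 0.09 and 0.28 for 72 h and 36 h), so letters were not treated as pairs. Alternatives covered normalisation, dim genes, probe set choice, variance prior, array weights, grouping, a replicate block and each array left out. The fit over all probe sets was chosen after seeing the data.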

Additional observations from a re-analysis of the deposited data

Results flagged for a closer look

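The difference between the array sets, D-F minus A-C, was not the same at 24 h as at 12 h for 3 members, by an interaction term fitted with limma over all genes, in which 3483 genes (19.1%) passed. For Epha2 the set difference was -0.02 at 24 h and 0.53 at 12 h, a change of -0.547 ± 0.138 (SE, limma adjusted p = 0.00606). For Epha7 it was 0.30 at 24 h and 1.12 at 12 h, a change of -0.816 ± 0.189 (SE, limma adjusted p = 0.00324). For Ephb3 it was -0.14 at 24 h and -0.98 at 12 h, a change of 0.835 ± 0.0867 (SE, limma adjusted p = 6.79e-07). The A-C arrays of 12 h and 24 h lie in the first array set and the D-F arrays in the second, so the letters and the array set cannot be told apart.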

How the results depend on the processing

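The number of genes called stayed within 1.5 times of its value under every alternative run. Leaving out 1 array gave 6050 to 6602 genes for 24 h A-C against 8 h, 7097 to 7813 for 36 h against 12 h D-F, 5424 to 5951 for 72 h against 36 h, 10034 to 10432 for 72 h against 12 h D-F, and 6147 to 6670 and 4925 to 5725 for D-F against A-C at 12 h and 24 h. The replicate block by letter gave 7187, 8146, 6538, 11012, 7139 and 6170 genes in these comparisons, and moved 2 member results past the threshold: Ephb3 at 24 h A-C against 8 h (-0.15, limma adjusted p = 0.0466) and Epha7 in D-F against A-C at 24 h (0.30, limma adjusted p = 0.0209). For 28 called member results, 415 of 430 values kept their direction and call, 15 lost the call and 0 reversed, and for 20 results not called, 26 of 302 values passed the threshold. Besides the losses given with the results, Efna5 in D-F against A-C at 12 h lost its call with probe sets averaged (0.23, limma adjusted p = 0.0514). Efnb1 in D-F against A-C at 24 h lost it without 24 h A-C A (0.22), 24 h A-C C (0.20), 24 h D-F D (0.28) or 24 h D-F F (0.22). That Efnb1 call was also lost in the fit of the pair of groups alone and without probe sets named _x_at, _s_at or _a_at. The cause of these losses was not tested. Among the results not called, Ephb3 at 24 h A-C against 8 h also passed under some alternatives other than the replicate block. It was -0.21 after quantile normalisation (limma adjusted p = 0.00359) and -0.14 with array weights (limma adjusted p = 0.022). Epha5 at 72 h against 12 h D-F, with both means under 4.73, passed with array weights too (limma adjusted p = 0.0385). Epha2, whose only probe set has a name ending in _a_at, gave no value without such probe sets.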
